A study of Mus musculus with 12 samples.

Results

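The genes described here encode the proteins of the small (40S) subunit of the cytosolic ribosome. They are the 28 rows of the authors' deposited table, out of 24221, whose symbol was one of a fixed set of 40S protein names, and all 28 were found and tested. The study compared mouse acute myeloid leukaemia cells of strain C57BL/6 that carry the MLL-AF9 fusion and Riok2fl/fl alleles, 72 h after hydroxytamoxifen (OHT) or after its vehicle ethanol (EtOH), with 3 samples in each group. RIOK2 is an atypical kinase needed for late cytoplasmic maturation of the 40S subunit, and OHT activates tamoxifen-dependent Cre recombinases. The Cre allele, how it is driven and the exons flanked by loxP are not stated by the labels. OHT was given only to cells with floxed alleles in this comparison, so an effect of the drug itself and an effect of Riok2 loss cannot be told apart. Samples treated with DMSO or with a RIOK2 inhibitor at 1 µM were not analysed here.

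A 40S subunit holds 1 copy of each of its proteins on a backbone of 18S ribosomal RNA, and its genes are among the most strongly transcribed of a growing cell. Their mRNAs begin with a 5-prime terminal oligopyrimidine (TOP) tract, a C followed by a run of pyrimidines, through which mTOR and LARP1 set their translation and stability. In blood cells the dose of single 40S proteins matters: loss of 1 allele of several of them causes Diamond-Blackfan anaemia, a failure of red cell production.

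The table gives, for each gene, a base mean (normalised reads averaged over the libraries), the log2 fold change and its standard error (SE), and p-values. It has 0 columns of values per sample, so single libraries cannot be shown and no spread between named replicates can be given. In the authors' deposited table Riok2 (base mean 712) stood at -3.60 ± 0.20 on the log2 scale (SE), with an adjusted p of 7.81e-69. The table does not name its numerator, and every fold below is read as OHT over EtOH from this gene. All base means together came to 20307732 normalised reads. All 6 myeloid leukaemia markers (Ptprc, Itgam, Mpo, Kit, Hoxa9, Meis1) had base means from 1648 (Meis1) to 34343 (Mpo) in the authors' deposited table. Of 10 markers of other cell types, 8 were under 10, with Cd3e and Ms4a1 among those at 0, and Pecam1 (base mean 1579) and Col1a1 (35.3) above. Cdh5, listed with Pecam1 for endothelium, had a base mean of 0.83. Of the 10 markers, 5 were tested, and in the authors' deposited table Col1a1 rose, with a log2 fold change of 1.48 ± 0.55 and an adjusted p of 0.0163. Its part in the results was not tested.

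The promoters are shown first, because the TOP tract is the sequence feature these genes are known to share. RefSeq windows on GRCm38.p6 were found for 24 of the 28 genes. In 7 of them (29.2%, exact 95% interval 12.6 to 51.1%) the first annotated base was a C followed by at least 4 pyrimidines, against 20.6% of 34 genes for 60S proteins and 3.01% of all 27025 genes with a window. When the run could begin within 5 bases of the annotated start, the shares were 50% for 40S protein genes, 47.1% for 60S protein genes and 21.2% for all genes. For a gene with several windows the longest run was taken. The annotated starts were not checked against the mRNA starts used in these cells, so a gene without a run is not shown to lack a TOP tract. Each line below runs from 30 bases before the annotated start to base 20 of the gene, and capitals mark the C and its pyrimidines. The first 7 have the run at the start. Rps2 is the gene with the steepest deposited fall, with its run 4 bases further in, and Rps16 is the gene with the smallest fall, with none. Rps27l, a close relative of Rps27, has a run 1 base after its first annotated start.
Fau, chr19:6057917-6057966, plus strand: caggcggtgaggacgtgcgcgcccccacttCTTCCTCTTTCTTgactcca
Rps6, chr4:86857348-86857397, minus strand: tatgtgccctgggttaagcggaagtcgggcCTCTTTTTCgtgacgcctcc
Rps10, chr17:27635225-27635274, minus strand: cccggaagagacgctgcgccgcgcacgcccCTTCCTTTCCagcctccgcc
Rps15a, chr7:118116128-118116177, minus strand: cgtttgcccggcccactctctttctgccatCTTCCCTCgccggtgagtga
Rps18, chr17:33955646-33955695, minus strand: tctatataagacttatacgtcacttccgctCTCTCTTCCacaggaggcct
Rps21, chr2:180257349-180257398, plus strand: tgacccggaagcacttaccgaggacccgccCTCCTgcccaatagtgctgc
Rps27, chr3:90213629-90213678, minus strand: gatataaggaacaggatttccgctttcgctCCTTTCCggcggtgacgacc
Rps2, chr17:24720033-24720082, plus strand: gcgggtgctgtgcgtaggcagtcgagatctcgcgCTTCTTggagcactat
Rps16, chr7:28350659-28350708, plus strand: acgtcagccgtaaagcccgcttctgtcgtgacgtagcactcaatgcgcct
Rps27l, chr9:66946056-66946105, plus strand: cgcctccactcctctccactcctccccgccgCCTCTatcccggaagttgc

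Every one of the 28 genes for 40S proteins had less mRNA in OHT than in EtOH. In the authors' deposited table all 28 passed an adjusted p of 0.05 as lower and 0 as higher, where 23.4% of all 13814 genes tested were called lower and 25.5% higher. Among the 9888 genes tested at base mean 100 or more these shares were 30% and 29.2%, and among the 1551 at 3000 or more they were 35.1% and 34.2%. The median log2 fold change of the 28 was -1.16, with a range of -1.62 to -0.87, while that of all genes tested was 0.050. A log2 fold change of -1 is an OHT level of 50% of that in EtOH, and 22 of the 28 lay below it. Of all 13814 genes tested 1142 lay below -1, and of the 1551 at base mean 3000 or more 187 did. These values compare amounts relative to all mRNA: fewer cells that transcribe a gene and less RNA per cell cannot be told apart. Myeloid markers moved in the same comparison: in the authors' deposited table Itgam (2.44 ± 0.12) and Ptprc (1.10 ± 0.12) rose, Mpo (-2.37 ± 0.23), Hoxa9 (-0.55 ± 0.19) and Meis1 (-0.41 ± 0.14) fell, and Kit (0.31 ± 0.26) did not pass. Their part in the result was not tested.

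**Figure D1:**
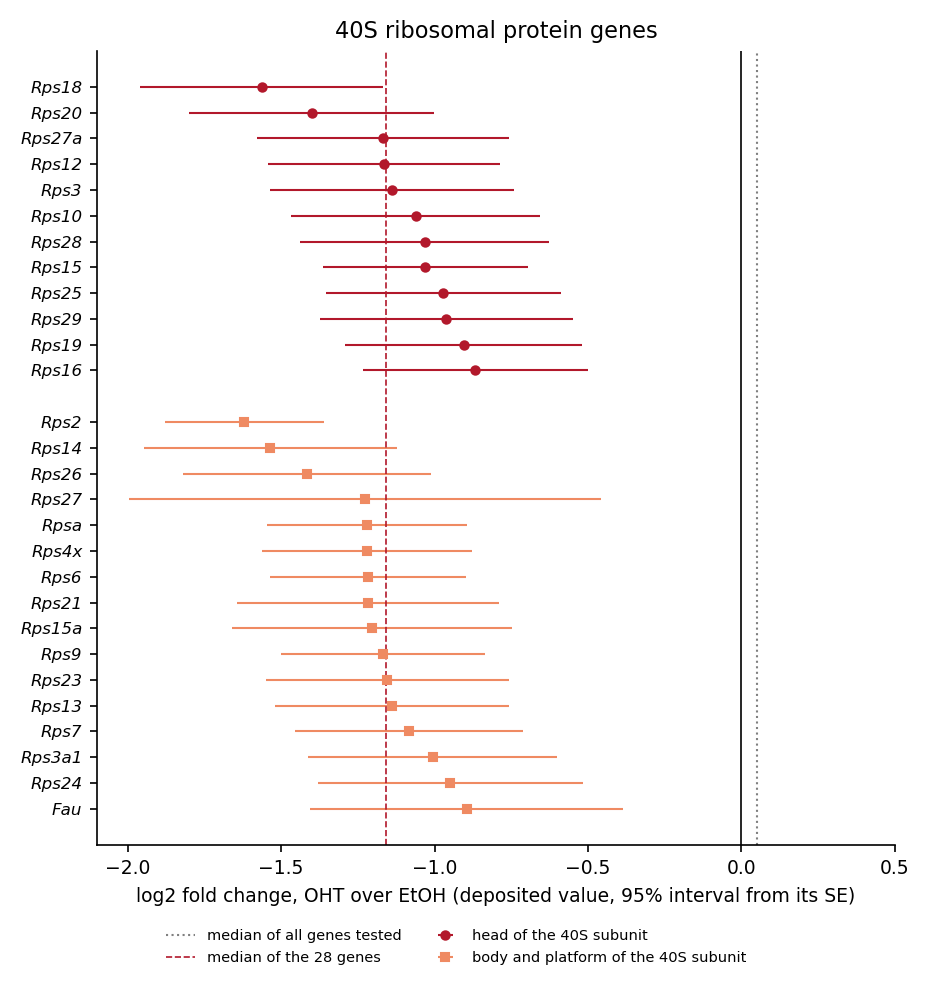
Log2 fold change of each 40S protein gene, OHT over EtOH (horizontal axis, deposited value), with bars for the 95% interval from its SE, for genes whose product sits in the head (circles) or in the body and platform (squares). All 28 intervals lie below 0, and those of Rps2 and Rps18 lie wholly below the median of -1.16 (dashed line).

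The amounts behind these folds were large. The base means of the 28 genes ran from 42.5 (Rps27) to 37677 (Rpsa) with a median of 14770, and they summed to 2.22% of all normalised reads. With the deposited base mean and fold taken as they stand and equal library numbers on both sides, the summed level of these genes comes to 276268 normalised reads in OHT and 624201 in EtOH. That is 1.34% of the reads of tested genes in OHT and 3.16% in EtOH, and an OHT sum that is 44.3% of the EtOH sum. These sums carry no error, since the table holds no values per sample.

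**Figure D2:**
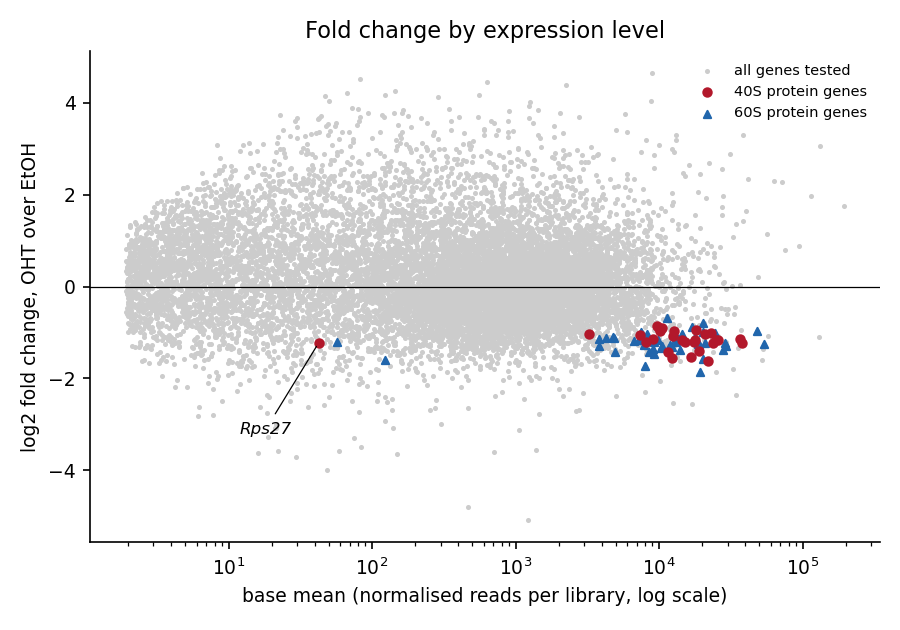
Log2 fold change, OHT over EtOH, against base mean on a log axis for all 13814 genes tested (grey), 40S protein genes (circles) and 60S protein genes (triangles). The 40S protein genes form a narrow band between -1.62 and -0.87 at the high end of expression, except for Rps27 at a base mean of 42.5.

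Genes for proteins at the mRNA entry and the decoding site ran from the largest deposited fall (Rps2) to one of the smallest (Fau). Rps3, Rps9 and Rps23 lay between them. Rps2, whose product lies at the mRNA entry channel, had the largest deposited fall. The authors' deposited table gives it -1.62 ± 0.13 (log2 fold change and SE), with an adjusted p of 3.8e-32. This puts it at an implied 10732 normalised reads in OHT and 32977 in EtOH, an OHT level at 32.5% of the EtOH level (95% interval 27.2 to 39.0%). Rps3, its neighbour at the entry channel, fell by 1.14 ± 0.20 in the authors' deposited table, with an implied 22900 normalised reads in OHT and 50432 in EtOH. Rps9 and Rps23, which act in the accuracy of decoding, had log2 fold changes of -1.17 ± 0.17 and -1.15 ± 0.20 in the authors' deposited table. Fau, which encodes an entry-channel protein made as a fusion with a ubiquitin-like protein, had one of the smallest falls in the authors' deposited table, at -0.89 ± 0.26 with an adjusted p of 0.00179. The intervals of Rps2 (-1.88 to -1.36) and Fau (-1.40 to -0.38) overlapped in a narrow stretch, and the difference between them was not tested. The deposited folds appear drawn towards 0 by a prior, more so at a larger SE. With this pull removed by an approximation, Rps27 (-1.69), Rps18 (-1.69), Rps2 (-1.67) and Rps14 (-1.67) lay close together. Which gene fell most is therefore not settled.

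Of the genes set out here for the mRNA exit and platform, Rps14, Rps26, Rpsa and Rps21 fell more than the median of the 28. Rps28 fell less. Rps14, a platform protein whose gene lies in the segment lost in the 5q- form of myelodysplastic syndrome, had -1.53 ± 0.21 in the authors' deposited table, with an adjusted p of 3.91e-12 and an implied 8608 normalised reads in OHT and 24943 in EtOH. Rps26, which sits beside the 3-prime end of the 18S RNA and binds mRNA upstream of the start codon, had -1.42 ± 0.21 with an adjusted p of 7.79e-11 there, with an implied 6270 normalised reads in OHT and 16738 in EtOH. Rpsa, the laminin receptor homologue on the back of the subunit and the most abundant of the 28, had -1.22 ± 0.17 in the authors' deposited table, with an implied 22634 normalised reads in OHT and 52721 in EtOH. Rps21, which binds near it, had -1.22 ± 0.22 in the authors' deposited table. Rps28, an exit-site protein with the second lowest base mean (3266), fell by 1.03 ± 0.21 in the authors' deposited table. It is counted with the head genes below.

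The head of the subunit, which carries the beak and touches the tRNAs, held some of the smallest falls. The 12 genes for head proteins, Rps3, Rps19 and Rps28 among them, had a median log2 fold change of -1.05 (range -1.56 to -0.87). The 16 for the body and platform had -1.21 (-1.62 to -0.89). The ranges overlap almost wholly, and the difference of 0.16 between the medians was not tested. Rps16, whose product reaches with its tail towards the P-site tRNA, had the smallest fall of all 28, at -0.87 ± 0.19 in the authors' deposited table with an adjusted p of 1.65e-05, which is an implied 6873 normalised reads in OHT and 12533 in EtOH. Rps18, which bridges the head to the large subunit, had the second largest deposited fall. It stood at -1.56 ± 0.20 with an adjusted p of 1.91e-13 in the authors' deposited table, with an implied 6225 normalised reads in OHT and 18398 in EtOH. Rps20 and Rps10, both marked with ubiquitin on collided ribosomes by the ligase ZNF598, had -1.40 ± 0.20 and -1.06 ± 0.21 in the authors' deposited table. Rps25, used by several viral RNAs for internal initiation, had -0.97 ± 0.20, Rps15 had -1.03 ± 0.17 and Rps29, a zinc-binding protein, -0.96 ± 0.21 in the authors' deposited table. Of the beak proteins, Rps12 had -1.17 ± 0.19 and Rps27a, made as a fusion with ubiquitin, -1.17 ± 0.21 in the authors' deposited table.

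The remaining genes for proteins of the body and platform ran from -1.23 (Rps27) to -0.95 (Rps24). Rps6, the target of the S6 kinases, and Rps4x, encoded on the X chromosome, both had -1.22 in the authors' deposited table, with SE of 0.16 and 0.17. Rps15a (-1.20 ± 0.23), Rps13 (-1.14 ± 0.19), Rps7 (-1.08 ± 0.19), Rps3a1 (-1.01 ± 0.21) and Rps24 (-0.95 ± 0.22) completed the body and platform in the authors' deposited table, beside Rps27 (-1.23 ± 0.39). The 9 genes mutated in Diamond-Blackfan anaemia (Rps7, Rps10, Rps15a, Rps19, Rps24, Rps26, Rps27, Rps28, Rps29) all passed as lower, as did the other 19. Over all genes tested 23.4% were called lower. The 9 had a median of -1.06 and a range of -1.42 to -0.91. The other 19 had a median of -1.17 (-1.62 to -0.87). Rps19, the gene most often mutated in that disease, stood at -0.91 ± 0.20 in the authors' deposited table, with an adjusted p of 2.08e-05.

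The spread of the 28 folds was close in size to the error of a single gene. The standard deviation of their log2 fold changes was 0.20, and the median SE of a single gene was also 0.20. The 95% intervals of 26 of the 28 held the median of the group, and those of Rps2 and Rps18 lay below it. The interval lay wholly below -1 for Rps2, Rps14, Rps18, Rps20 and Rps26, which is 5 of the 28, against 2.17% of all genes tested and 4.51% of those at base mean 3000 or more. No interval lay wholly above -1. The errors of different genes come from the same libraries, and the table does not hold their covariance. The spread that error alone would give is therefore unknown, and pairs of genes were not tested. Across the 28 genes the fold change had a Spearman correlation of -0.24 with base mean and -0.19 with coding length. Without Rps27, whose level is uncertain, the correlation with base mean was -0.34. Over the 24 with a promoter window, the fold change had a correlation of -0.24 with the length of the pyrimidine run within 5 bases of the start. These are descriptions across genes of the same libraries, all are weak, and none was tested. The 7 genes with a run at the annotated start had a median of -1.22 (range -1.56 to -0.89), and the 17 without had -1.14 (-1.62 to -0.87).

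Genes for large-subunit proteins were also lower in OHT. Of 47 genes for 60S proteins 46 were tested, and in the authors' deposited table all 46 passed as lower, with a median log2 fold change of -1.21. The steepest fall among them was that of Rpl3, at -1.86 ± 0.13 in the authors' deposited table, beyond that of Rps2. The median of the 40S protein genes was 0.055 higher than that of the 60S protein genes, a difference that was not tested. Single genes had an SD of 0.20 in the 40S list and 0.22 in the 60S list. As a share of the EtOH level, the implied summed OHT level was 44.3% for the 40S list and 43.7% for the 60S list. The 60S interval lay below -1 for 11 of 46 genes, beside 5 of 28 for 40S.

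**Figure D3:**
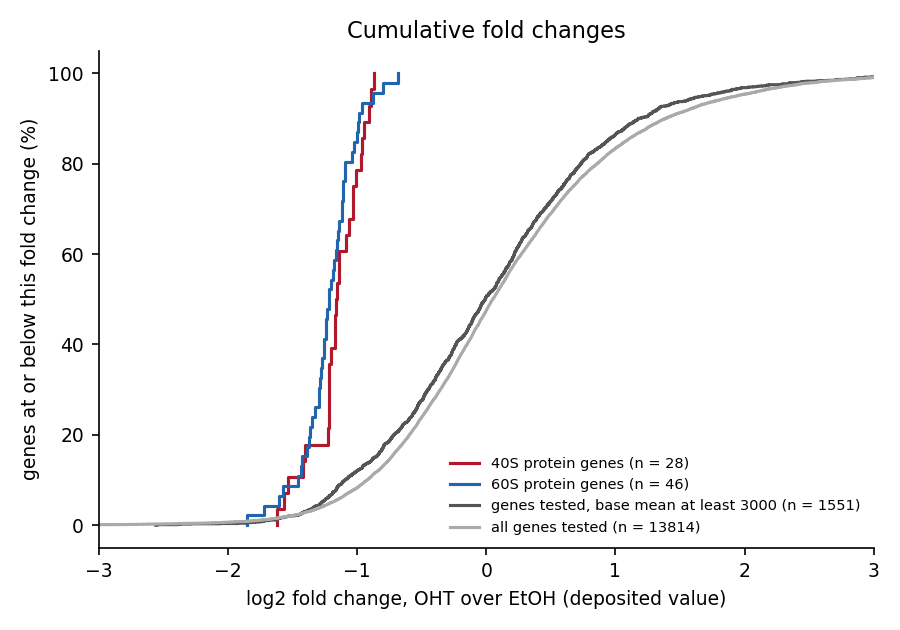
Cumulative share of genes (vertical axis, %) at or below each log2 fold change, OHT over EtOH, for the 28 genes for 40S proteins, 46 for 60S proteins, the 1551 genes tested at base mean 3000 or more and all 13814 genes tested. The 40S and 60S curves run close together around -1.16 and -1.21, and both reach 100% before the background curves reach 50%.

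Levels of the 28 genes relative to one another were set out per length, since each protein is needed once per subunit. Per kb of coding sequence, 27 of the 28 lay between 14824 (Rps10) and 64245 (Rps12) normalised reads, a 4.33-fold range. Rps27 stood apart at 167 normalised reads per kb, 0.509% of the median of 32718. All 50-base words of the Rps27 coding sequence also occur in the annotated gene Rps27rt, a near-identical copy with a base mean of 0 in the authors' deposited table. How reads with several matches were counted is not stated in the labels, and the level of Rps27 is therefore uncertain, as is its fold. Another 8 genes (Rps6, Rps12, Rps16, Rps23, Rps27a, Rps28, Rps29 and Fau) also have no coding word of their own, yet their base means ran from 3266 to 25634. All 28 share coding words with at least 1 annotated pseudogene, so reads of each could be split with copies. Only 3 copies named after a member (Rps19-ps3, Rps15a-ps6, Rps15a-ps4) had rows of their own, with base means of at most 13.5 in the authors' deposited table. The 9 genes with no coding word of their own had a median log2 fold change of -1.15, and the other 19 had -1.17. Genes on the opposite strand overlap 7 members, among them Snhg9 at Rps2 (base mean 4.34 in the authors' deposited table), and whether the counting used strand is not given.

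**Figure D4:**
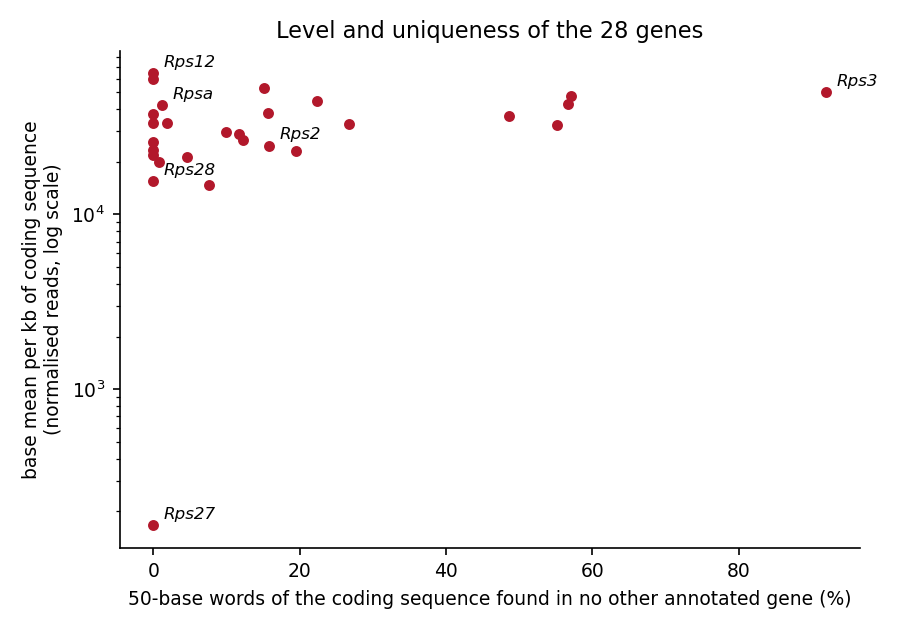
Base mean per kb of coding sequence (vertical log axis, normalised reads) against the share of 50-base coding words found in no other annotated gene (horizontal axis, %) for the 28 genes. Rps27 sits at 167, far below the other 27, while genes with as few words of their own, such as Rps12, reach 64245.

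Of 2 close relatives of 40S protein genes, 1 fell and 1 did not pass. Rps27l, which encodes a near twin of the Rps27 protein and is a known p53 target, did not pass in the authors' deposited table (base mean 2410, log2 fold change -0.33 ± 0.17, adjusted p of 0.109), with an implied 2139 normalised reads in OHT and 2681 in EtOH. Rps4l, a relative of Rps4x, had -0.68 ± 0.20 in the authors' deposited table, with an adjusted p of 0.00212. The 95% interval of Rps27l ran from -0.67 to 0.01 and that of Rps27 from -1.99 to -0.46, and the difference between them was not tested.

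Small nucleolar RNAs (snoRNAs), which guide rRNA modification, lie in introns of 8 of the 28 genes. Of 14 snoRNA genes inside them, 10 had a row and 7 an adjusted p. By DESeq2, in the authors' deposited table, none of these passed and none had an unadjusted p under 0.05. Their log2 fold changes ran from -0.66 to 0.12 with SE of at least 0.54, and no base mean exceeded 15.9. With so few reads their folds are too imprecise to set beside those of the host genes.

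Partners of 40S proteins moved in both directions. The chaperones Tsr2 and Pdcd2, the relative Pdcd2l, the assembly factor Ltv1 and the binding partner Rps19bp1 all fell. Of 18 chaperones, modifying enzymes and kinases that act on named 40S proteins or on nascent chains, 9 fell, 4 rose and 5 did not pass, with a median log2 fold change of -0.36. Among all genes tested 23.4% were lower and 25.5% higher. At base mean 100 or more, where all 18 lie, these shares were 30% and 29.2%. Tsr2, the chaperone that hands over Rps26, had -1.36 ± 0.15 in the authors' deposited table, with an adjusted p of 2.66e-18. Pdcd2, a chaperone of Rps2, fell (-1.21 ± 0.24), as did its relative Pdcd2l (-0.54 ± 0.20) and Prmt3, which methylates Rps2 (-1.03 ± 0.15), in the authors' deposited table. Ltv1, the assembly factor that holds Rps3 and Rps20 back during beak formation in yeast, fell (-0.63 ± 0.15), as did Rps19bp1, a binding partner of Rps19 (-0.74 ± 0.18), in the authors' deposited table. Of the enzymes of 40S ubiquitination, the ligase gene Zfp598 (-0.46 ± 0.19) and the deubiquitinase gene Usp10 (-1.03 ± 0.20) fell, while Rnf10, the ligase for Rps2 and Rps3, rose by 0.39 ± 0.15 and Otud3 by 0.79 ± 0.26 in the authors' deposited table. Of the kinases, Rps6ka3 rose by 1.18 ± 0.15 and Rps6ka1 by 0.60 ± 0.18, while Rps6kb1 (0.13 ± 0.15, adjusted p = 0.489) and Rps6kb2 (0.23 ± 0.21, adjusted p = 0.37) did not pass in the authors' deposited table. Metap2, which removes the first methionine of nascent chains, fell by 0.77 ± 0.15, and Metap1 (-0.17 ± 0.13), Usp16 (-0.27 ± 0.14) and Usp21 (0.22 ± 0.19) did not pass in the authors' deposited table.

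Genes of the pathway that acts on TOP mRNAs also fell in part. Of 15, 9 fell, 0 rose and 6 did not pass, with a median log2 fold change of -0.53, where 23.4% of all genes tested were lower and 25.5% higher. At base mean 100 or more, where all 15 lie, these shares were 30% and 29.2%. Larp1, which binds the cap and the TOP tract, had -0.55 ± 0.16 in the authors' deposited table, with an adjusted p of 0.00181. Cnbp, a zinc-finger protein that binds TOP mRNAs, fell (-1.19 ± 0.16), as did the cap-binding Eif4e (-0.98 ± 0.14), its inhibitor Eif4ebp1 (-1.16 ± 0.22) and the poly(A)-binding Pabpc1 (-0.96 ± 0.10) in the authors' deposited table. The others that fell in the authors' deposited table were Larp4 (-0.63 ± 0.13), Larp1b (-0.41 ± 0.16), Tial1 (-0.54 ± 0.15) and Ssb (-0.53 ± 0.20). Mtor (0.29 ± 0.20), Rptor (-0.27 ± 0.20), Rheb (-0.20 ± 0.17), Eif4ebp2 (0.22 ± 0.21), Eif4ebp3 (-0.42 ± 0.24) and Tia1 (-0.11 ± 0.16) did not pass there.

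Promoters of the 40S protein genes held some known binding motifs of general factors more often than all genes with a window, and others less often. These differences were not tested. On either strand of the 300-base windows, the core of the ETS family (CCGGAA), which includes GABPA, was found in 13 of 24 genes (54.2%), against 55.9% of 60S protein genes and 16.7% of all genes with a window. The GC box of SP1 (GGGCGG) was found in 54.2%, against 67.6% and 38.2%. A YY1 site (AANATGGC) was found in 20.8%, against 20.6% and 6.96%. The E-box (CACGTG), a site of MYC and MAX, was found in 4.17%, against 14.7% and 8.09%, and TATAAA in 8.33%, against 11.8% and 15.7%. No motif searched contains another, and a match says only that the letters are there. Of 9 genes for factors of such promoters, 5 fell, 1 rose and 3 did not pass, with a median log2 fold change of -0.38, beside 23.4% lower and 25.5% higher over all genes tested. At base mean 100 or more, where all 9 lie, these shares were 30% and 29.2%. Myc had -1.63 ± 0.11 in the authors' deposited table, with an adjusted p of 1.11e-43. Tbpl1 (-0.63 ± 0.21), Tbp (-0.49 ± 0.13), Gabpb1 (-0.44 ± 0.15) and Yy1 (-0.38 ± 0.13) fell, and Zbtb7a rose by 0.86 ± 0.16 in the authors' deposited table. Gabpa (-0.20 ± 0.11), Sp1 (0.23 ± 0.12) and Max (0.04 ± 0.13) did not pass in the authors' deposited table.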

How the data were processed

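The labels' protocols name an RNeasy kit and a TruSeq RNA kit. The submitters' processing notes list STAR 2.7.2b, Trimmomatic 0.38.0, HTSeq 0.9.1, DESeq2, DESeq and the mm10 build. The sources used here do not give the annotation or the counting options, strand included. The authors deposited 1 comparison table with, per gene, a base mean (a normalised signal), a log2 fold change, its SE on the log2 scale, a p-value, an adjusted p-value and a Wald score. The columns carry no names. Their identities were checked: the deposited score equals fold over SE to within 7.56e-08, and Benjamini-Hochberg adjustment of the p-values of 13814 genes gives the adjusted p-value with a largest deviation of 2.33e-07. Single reads in the lowest base means showed 6 libraries, 3 on each side of the fold. No SE exceeds 0.747, which is the mark of folds that a prior draws towards 0.

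No test of samples was possible, so a gene was called where the authors' adjusted p-value was under 0.05. The labels do not say that replicates were separate cultures, and p-values then cover only how these samples varied, possibly for technical reasons. Intervals are 95%, from the SE. Genes, lists and the naming rule (all 28 members, Riok2, Rps27l, the ends of the 60S range, of which 1 is not reported here, every tested gene of the partner, TOP and promoter factor lists) were chosen with earlier results of these data known. Rps4l, Rps27rt, Snhg9 and the 3 named copies fall outside the rule and were named after their values were seen. The minimum base mean of 3000 was chosen after seeing the data. Positions and coding sequences came from GENCODE M21 (GRCm38) and promoter windows (250 bases before to 50 after the start) from RefSeq on GRCm38.p6. The coding sequence used was that of the shortest of the best-supported principal transcripts, which fixes the lengths. Words of 50 bases were searched on both strands of all annotated transcripts, not in the whole genome. Python 3.11.15, NumPy 2.4.6, pandas 2.3.3 and SciPy 1.17.1 were used, and the adjustment was tested on simulated data.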

Additional observations from a re-analysis of the deposited data

How the results depend on the processing

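The 28 genes called lower and 0 called higher stayed at 28 and 0 at an adjusted p of 0.01, with adjustment over every gene with a p-value, and with folds centred on the median of all tested genes or of those at base mean 100 or more. They were 22 and 0 by Bonferroni adjustment, 27 and 0 over genes at base mean 100 or more or without Rps27 (added after seeing the data), 26 and 0 without genes that have a named copy in the table, and 14 and 0 with SE above the members' median left out, which by construction leaves 14 genes. The median ran from -1.24 (pull of the prior removed, an approximation added after seeing the data) to -1.14. The gap between the 40S and 60S medians ran from 0.015 to 0.061, and the share with a pyrimidine run from 25 to 50%. No paired analysis was possible because the table holds no values per sample, and leaving out replicates was not run for the same reason. The depth of single libraries is unknown here, and genes with few reads, such as the snoRNAs and Rps27, are the limit.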
